A study of Mus musculus with 3 samples.

Results

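The cells described here are macrophages of B16F10 tumours that carried many transcripts of both Pf4 and C1qa. They were chosen from single-cell counts as barcodes with at least 1500 UMIs (unique molecular identifiers, 1 per captured transcript) and under 10% mitochondrial UMIs that held 5 or more UMIs of Pf4, 10 or more of C1qa, at least 1 in all of Stab1, Fcrls, Gas6 and Vcam1, and none of Flt3 or Cd3e. The rule picked 167 of the 8139 barcodes that passed the filters: 48 of 2719 at day 3, 21 of 2577 at day 7 and 98 of 2843 at day 14. C57BL/6 mice bore subcutaneous tumours of B16F10, a melanoma line of the same strain, and on day 9 after inoculation received Pmel-1 cytotoxic T cells, which had been activated in vitro and recognise the melanoma antigen gp100. Tumours were taken on day 3, 7 or 14 after the transfer, and equal numbers of CD45+ cells from 3 mice were pooled into 1 library for each day. All 3 groups had received the transfer, and no group without it was analysed here. Day after transfer therefore cannot be told apart from tumour age, from the mice pooled or from the library. With 1 library per day there was no replicate of any day, so no test of a difference between days was possible, and every interval below is a 95% interval that covers counting error only.

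Resident macrophages are long-lived cells that many organs carry from before birth, whereas tumour macrophages largely arise from blood monocytes that mature after they enter. Mature macrophages clear dying cells. Their toolkit includes C1q, the complement subunit that coats debris, Stab1 and Mrc1, which are scavenger and mannose receptors, and Gas6, which bridges dying cells to TAM receptors. Pf4 is a chemokine best known from platelets that is also made by perivascular and other resident macrophages, and Fcrls is an Fc receptor-like gene best known from microglia. Arg1, the arginase that consumes arginine, is a common gene of tumour macrophages, which makes macrophages with Arg1 and without Pf4 the natural set to describe these cells against.

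The promoters of 4 genes that were used for the choice or that accompanied it are printed because they show the regulatory sequence of the genes that define these cells. Each is the 250 bases before the RefSeq start in GRCm38.p6, in the direction of the gene. Capitals mark GAGGAA, the core of PU.1 sites, or TGCTGA, a Maf half-site, on either strand. The windows lie at chr5:90772185-90772434 on the plus strand for Pf4, and on the minus strand at chr4:136886201-136886450 for C1qb, chr4:136892915-136893164 for C1qc and chr14:31168642-31168891 for Stab1.
Pf4 promoter: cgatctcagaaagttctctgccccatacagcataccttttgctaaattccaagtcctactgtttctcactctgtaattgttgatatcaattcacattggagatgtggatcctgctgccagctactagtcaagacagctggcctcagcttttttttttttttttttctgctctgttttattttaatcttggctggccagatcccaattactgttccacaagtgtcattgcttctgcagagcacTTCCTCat
C1qb promoter: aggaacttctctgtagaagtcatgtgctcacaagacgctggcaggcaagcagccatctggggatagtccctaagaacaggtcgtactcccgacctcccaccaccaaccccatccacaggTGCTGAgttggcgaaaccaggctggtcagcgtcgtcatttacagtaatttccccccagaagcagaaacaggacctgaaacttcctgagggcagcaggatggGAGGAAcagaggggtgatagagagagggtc
C1qc promoter: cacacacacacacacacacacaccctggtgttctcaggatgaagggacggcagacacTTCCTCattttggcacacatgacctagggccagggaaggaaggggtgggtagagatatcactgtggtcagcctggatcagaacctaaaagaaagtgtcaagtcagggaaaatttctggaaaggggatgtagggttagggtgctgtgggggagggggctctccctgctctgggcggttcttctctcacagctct
Stab1 promoter: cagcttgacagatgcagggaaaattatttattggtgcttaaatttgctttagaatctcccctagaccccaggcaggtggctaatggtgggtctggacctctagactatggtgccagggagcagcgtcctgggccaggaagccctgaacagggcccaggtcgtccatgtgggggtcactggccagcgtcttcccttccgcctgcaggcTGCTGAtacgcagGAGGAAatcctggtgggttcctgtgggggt
GAGGAA occurred in 23.3% and TGCTGA in 16.1% of 32851 windows of this length. The windows of 7 genes were searched, these 4 and those of Fcrls, Gas6 and Mrc1. GAGGAA was found in 6 of 7, TGCTGA in C1qb, Stab1 and Fcrls, and neither in Gas6. A match is a description of the letters and not evidence of a bound site.

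Pf4 and C1q high macrophages made up 1.77% (exact interval 1.30 to 2.33) of filtered barcodes at day 3, 0.815% (0.505 to 1.24) at day 7 and 3.45% (2.81 to 4.18) at day 14. The share was 1.95-fold higher at day 14 than at day 3 (1.37 to 2.82) and 4.23-fold higher than at day 7 (2.62 to 7.14). Day 7 was the low point, and its share was 2.17-fold (1.27 to 3.81) below day 3. With looser thresholds of 3 Pf4 and 5 C1qa UMIs the shares of days 3 and 7 lay closer, at 1.91 and 1.32%. Arg1 macrophages, chosen as barcodes with 5 or more Arg1 UMIs, none of Pf4, Flt3 or Cd3e and at least 1 of Csf1r or Adgre1, numbered 62, 97 and 134, and their share was 2.28, 3.76 and 4.71%. Their share was 2.07-fold (1.52 to 2.84) higher at day 14 than at day 3, and unlike the Pf4 and C1q high cells they were not at their lowest at day 7. Among barcodes rich in C1qa (10 or more UMIs), the whole rule was met by 32.4, 23.6 and 40.0% on the 3 days. On this denominator day 14 could not be told apart from day 3 (log2 ratio 0.30, -0.21 to 0.83). The same held for day 7 against day 3 (log2 ratio -0.46, -1.27 to 0.31).

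**Figure D1:**
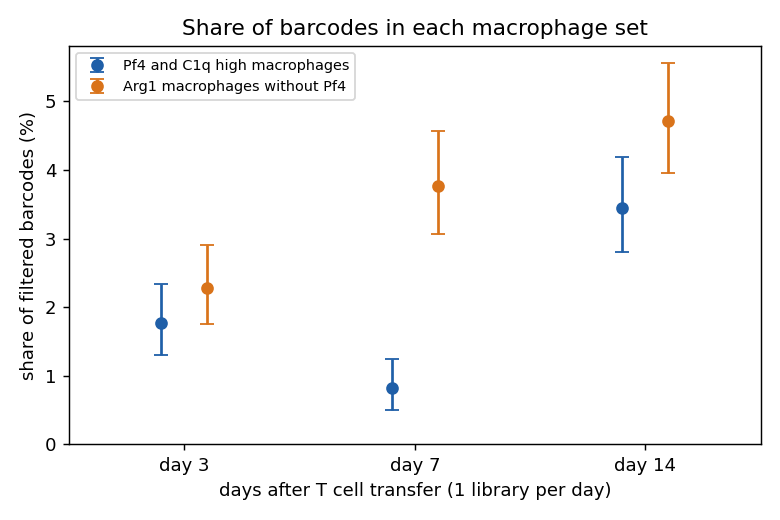
Share of filtered barcodes in percent (vertical axis) by day after T cell transfer for the Pf4 and C1q high macrophages (blue) and for Arg1 macrophages without Pf4 (orange), with exact 95% intervals for counting error and 1 library per day. The Pf4 and C1q high share was 1.77, 0.815 and 3.45%, lowest at day 7, while the Arg1 share was higher at each later day.

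The chosen cells were deep. Their median depth on days 3, 7 and 14 was 19701.5, 14219 and 19577.5 UMIs, that of Arg1 macrophages 12129, 11234 and 13231.5, and a count threshold favours deep cells by itself. Together they held 1124432, 335806 and 2152178 UMIs. Some of their barcodes also occurred in another library, namely 11 at day 3, 3 at day 7 and 6 at day 14. These cells had at least 33391, 22477 and 36403 UMIs on the 3 days, their partners in the other libraries held 501 to 850 UMIs and so stood below the filter, and no barcode was counted as a member in more than 1 library. Where leaving these deep cells out ends a call named below, that is said beside it. Without them the log2 ratio of the day 14 to the day 3 share was 1.22, and with thresholds applied after each cell was thinned to 5000 UMIs it was 1.01, and in both cases day 14 stayed above day 3. The median mitochondrial share of their UMIs was 2.47, 2.54 and 3.17%, and with a limit of 5% in place of 10% the log2 ratio was 0.74.

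Few cells inside the rule sat at its thresholds, while more lay just outside them at days 7 and 14. With the looser thresholds of 3 Pf4 and 5 C1qa UMIs the rule took 52, 34 and 124 cells at days 3, 7 and 14. Cells with 5 or 6 Pf4 UMIs numbered 1, 2 and 4 inside the rule at days 3, 7 and 14, and cells with 3 or 4 Pf4 UMIs that met everything else numbered 2, 5 and 14 outside it. For C1qa, 4, 2 and 4 cells held 10 to 12 UMIs inside and 0, 6 and 8 held 7 to 9 outside. The clause on Cd3e removed 10, 2 and 12 cells, whose median depth of 39246.5, 24537 and 35324 UMIs was above that of the cells kept. Of the 4 genes in the clause, Stab1 was seen in most cells, 47 of 48, 19 of 21 and 95 of 98, whereas Fcrls was seen in 24, 2 and 29, Gas6 in 25, 5 and 52, and Vcam1, an adhesion molecule, in 10, 1 and 39.

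Levels are given as CPM, counts of a gene summed over the cells of a day per 1000000 of their summed UMIs. The genes that made the choice are a description and support nothing. In mm10 with GENCODE M21, Pf4 lies at chr5:90772435-90773383 and the C1q genes lie next to each other on chromosome 4, C1qb at chr4:136880129-136886187, C1qc at chr4:136889804-136893065 and C1qa at chr4:136895917-136898803. Pf4 stood at 3548, 2248 and 3248 CPM at days 3, 7 and 14. C1qa stood at 2702, 2990 and 3396 CPM. The other chains of C1q, which the rule did not name, were at similar height, C1qb at 3217, 4002 and 3580 CPM and C1qc at 1996, 1885 and 2266 CPM, where Arg1 macrophages had 990, 663 and 777 CPM of C1qb and 449, 268 and 338 CPM of C1qc. Stab1 was at 510, 188 and 513 CPM. Gas6 was at 229, 41.7 and 171 CPM and Fcrls at 127, 5.96 and 77.6 CPM. Vcam1 was at 70.3, 11.9 and 142 CPM, 2.02-fold higher at day 14 than at day 3 (1.57 to 2.62). Stab1, Gas6, Fcrls and Vcam1 were all lowest in the 21 cells of day 7.

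The cells had macrophage genes and few platelet transcripts other than Ppbp. Csf1r, the receptor for the macrophage growth factor, was at 374, 432 and 361 CPM, and Adgre1, which encodes the F4/80 antigen, at 291, 259 and 297 CPM. Of the platelet genes, Itga2b, Gp9, Gp1ba, Gp1bb, Gp5 and Gp6 were at 0 on all 3 days, which allows up to 2.67, 8.93 and 1.39 CPM each, and Clec1b, Treml1 and Itgb3 held at most 4 UMIs on any day. Ppbp, the chemokine next to Pf4 in the genome, had 64, 8 and 368 UMIs in 5, 1 and 11 cells. The label "resident-like" was borne out only in part. Timd4, a phagocytic receptor of embryo-derived resident macrophages, was at 0 in all 167 cells, which allows up to 1.80% of cells with a UMI. Lyve1, a hyaluronan receptor of perivascular macrophages, was seen in 3, 1 and 6 cells, and 1 cell held 80 of the 83 UMIs at day 3 and another 100 of the 121 at day 14. Cd163, a haemoglobin scavenger receptor, was seen in 7, 1 and 4 cells. Folr2, a folate receptor of tissue macrophages, was seen in 30, 4 and 33 cells. The cells are therefore called by their leading genes and not by an origin.

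Transcripts of other cell types were few. The summed level of the T cell list was 37.4, 68.5 and 36.7 CPM at days 3, 7 and 14 and that of the natural killer cell list 82.7, 14.9 and 36.7 CPM. The B cell list was at 61.4, 56.6 and 49.7 CPM, with Cd79a, Ms4a1 and Pax5 at 0. The neutrophil list was at 64.0, 59.6 and 72.5 CPM, the melanoma list at 40.0, 62.5 and 45.1 CPM and the dendritic cell list at 27.6, 2.98 and 3.72 CPM. Endothelial genes summed to 25.8, 29.8 and 14.4 CPM, fibroblast genes to 0, 0 and 0.465 CPM, and erythroid genes were at 0. Arg1 macrophages, which serve for comparison below, held 5619 CPM of erythroid genes at day 3, led by Hbb-bs, and 0.834 and 0.552 CPM at days 7 and 14. Their other lists summed to at most 135 CPM on any day. The part of the erythroid transcripts in the comparisons with them was not tested. The natural killer and dendritic cell lists were higher at day 3 than at day 14, and their part in the day differences below was not tested.

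The cells differed widely from each other. Pf4 ranged from 286 through a median of 2858 to 20673 CPM per cell at day 3 and from 214 through 2486 to 26978 CPM at day 14. Arg1, which the rule did not use, ranged from 0 through a median of 398 to 17403 CPM at day 3 and from 0 through 374 to 12740 CPM at day 14. Cells with 5 or more Arg1 UMIs numbered 29 of 48, 11 of 21 and 54 of 98, and cells with none numbered 12, 9 and 31. Summed over members, Arg1 reached 2375, 1697 and 2020 CPM, where the Arg1 macrophages, chosen for this gene, had 2498, 2985 and 3540 CPM. Most Pf4 and C1q high cells thus carried Arg1 too. Ccl8, a monocyte-attracting chemokine, was seen in 23 of 48 cells at day 3, when its median per cell was 0 and its highest value 21120 CPM. After thinning each cell to 5000 UMIs, Ccl8 was seen in 31.3, 23.8 and 42.9% of the cells on the 3 days, against 2.49, 0.767 and 2.42% of T cells, which should lack it. Mrc1 was seen in 70.8, 81.0 and 82.7% of thinned cells and Folr2 in 31.3, 14.3 and 16.3%.

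Between days 3 and 14 the clearest difference in these macrophages was a lower level of interferon-gamma response genes at day 14. A gene is called higher or lower where its ratio is at least 1.5-fold, its interval excludes 1 and both sums hold at least 20 UMIs together, which is a rule of size and not a test. Over 8399 genes, 2.5% (210) were higher and 5.01% (421) lower at day 14 than at day 3, with a median log2 ratio of -0.07. Of 18 interferon-gamma response genes, 13 were lower and 0 higher, with a median log2 ratio of -1.26. Irf1, a transcription factor that interferon-gamma induces (chr11:53770014-53778374), was at 351 CPM at day 3, 217 at day 7 and 89.2 at day 14, and was 3.94-fold lower at day 14 than at day 3 (3.31 to 4.70). Cxcl10, a chemokine that attracts activated T cells (chr5:92346638-92348889), was at 1041, 202 and 286 CPM and 3.64-fold lower (3.29 to 4.01). Gbp2, an interferon-inducible GTPase (chr3:142620602-142638008), was at 440, 238 and 123 CPM and 3.58-fold lower (3.07 to 4.17). All 3 genes were highest at day 3, Cxcl10 was lowest at day 7 and the other pair at day 14.

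Other members of the list went the same way by different amounts. Socs1, a feedback inhibitor of cytokine signalling, was at 71.1, 17.9 and 14.9 CPM. Cd274, which encodes the checkpoint ligand PD-L1, was at 197, 170 and 89.2 CPM and 2.21-fold lower at day 14 than at day 3. Irf8, a transcription factor of myeloid cells, was at 390, 375 and 217 CPM and 1.80-fold lower, with a log2 ratio of -0.24 in members without Arg1. Genes that did not meet the rule included the chemokine Cxcl9, and Tap1, Psmb8 and Psmb9, which prepare peptides for MHC class I. Without the shared barcodes, when 4.25% of all genes were higher and 5.43% lower, 13 of 18 were again lower and their median was -1.25. The difference was not alike in all the cells. In members with 5 or more Arg1 UMIs 15 of 18 genes were lower, with a median of -1.52, where 6.93% of all genes were lower and 2.35% higher. Among the cells without Arg1, 31 at day 14 and 12 at day 3, the rule called 5 of 15 genes higher and 3 lower, and their median was 0.29. Of all genes it called 6.14% higher and 5.89% lower there. In those cells Gbp2 was at 75.1 CPM at day 3 and 159 CPM at day 14, while Irf1 was at 310 and 99.6 CPM and Cxcl10 at 920 and 140 CPM. Irf1 and Cxcl10 were thus lower in both kinds of cell, and Gbp2 was lower at day 14 in the cells with Arg1 and higher in those without. The difference between the kinds of cell was not tested. In Arg1 macrophages without Pf4 all 18 genes were lower, with a median of -1.95, beside 8.76% of all genes.

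**Figure D2:**
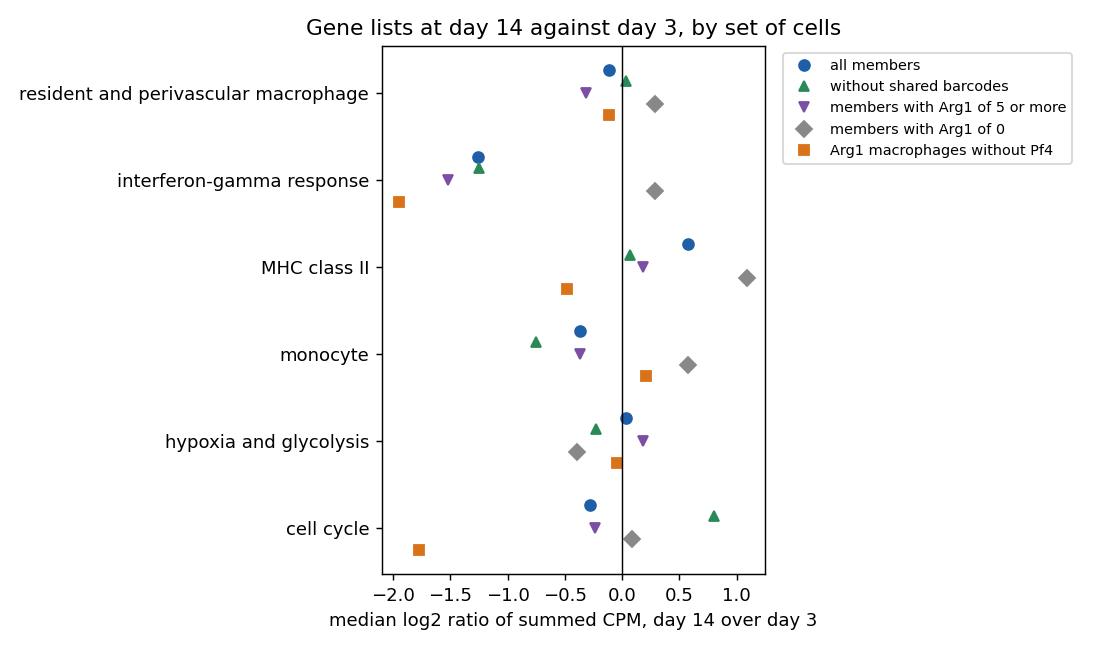
Median log2 ratio of summed CPM at day 14 over day 3 (horizontal axis) for 6 gene lists, in all Pf4 and C1q high macrophages (blue circles), without barcodes shared between libraries (green triangles), with 5 or more Arg1 UMIs (purple triangles), with none (grey diamonds) and in Arg1 macrophages without Pf4 (orange squares). The interferon-gamma list stands at -1.26 in all members and at 0.29 in those without Arg1, and the cell cycle list changes sign, from -0.28 to 0.80, without the shared barcodes.

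Type I interferon response genes had 6 of 12 lower, 0 higher and a median log2 ratio of -0.60. Isg15, a ubiquitin-like protein that interferons induce, was at 205, 271 and 107 CPM and 1.91-fold lower at day 14 than at day 3, but its log2 ratio was -0.44 with the looser thresholds of 3 Pf4 and 5 C1qa UMIs. Antigen presentation on MHC class II went the other way in the sum. H2-Aa, an MHC class II chain, was at 1127 CPM at day 3, 3684 at day 7 and 1907 at day 14, and was 1.69-fold higher at day 14 than at day 3. H2-Ab1 was at 937, 2993 and 1511 CPM, and Cd74, the invariant chain that guides MHC class II to its compartment, at 2801, 8797 and 4577 CPM. All of them were highest in the 21 cells of day 7. By the rule 4 of 11 genes were higher at day 14 than at day 3, and Ciita, the master transactivator of the class, was lower. The higher calls did not hold without the shared barcodes, when 0 of 10 were higher and 2 lower and the log2 ratio of H2-Aa was 0.38. In cells without Arg1, 5 of 7 were higher.

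The genes of resident and perivascular macrophages showed no common direction, with 2 of 17 higher and 2 lower and a median log2 ratio of -0.11. Ccl8 (chr11:82115185-82116799) was at 708, 339 and 1375 CPM and 1.94-fold higher at day 14 than at day 3 (1.80 to 2.10), with a log2 ratio of 0.57 in members without any lymphocyte marker UMI. Folr2 was at 180, 83.4 and 79.5 CPM and 2.26-fold lower at day 14 (1.84 to 2.79), and Ltc4s, which makes leukotriene C4, was lower too. In members without Arg1 the log2 ratio of Folr2 was 0.29. Complement genes were called in 0 of 10, Fc receptor genes in 0 of 6 and hypoxia and glycolysis genes in 1 of 16, which was Ero1l, an oxidase of protein folding, at 108, 226 and 198 CPM.

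Among lipid genes, Apoe, the apolipoprotein that carries cholesterol (chr7:19696109-19699188), was at 3063, 2918 and 4776 CPM and 1.56-fold higher at day 14 than at day 3 (1.5 to 1.62), with a log2 ratio of 0.40 without the shared barcodes. Gpnmb, a glycoprotein of lipid-laden macrophages, was at 68.5, 41.7 and 125 CPM and 1.82-fold higher. Fabp4, a fatty acid carrier, was at 94.3, 0 and 20.4 CPM and 4.61-fold lower, but 81 of its 106 UMIs at day 3 came from 1 cell. In all, 3 of 20 genes of this list were higher and 1 lower. Axl, a TAM receptor for Gas6, was at 32.9, 44.7 and 63.2 CPM, in 19, 6 and 48 cells, and 1.92-fold higher (1.33 to 2.84). Mmp12, the macrophage elastase (chr9:7344381-7369499), was near the top of the genes that were higher at day 14, at 165, 113 and 465 CPM and 2.83-fold higher (2.41 to 3.33). It was seen in 11 cells at day 3, in 33 at day 14, and its log2 ratio was 0.37 when the rule was applied after thinning. Shtn1, an actin and microtubule linker, was at 21.3, 44.7 and 53.4 CPM and 2.5-fold higher (1.60 to 4.07).

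Other genes at the top of the list rested on few cells. Slpi, a protease inhibitor, was 2.79-fold higher at day 14, with 135 of its 219 UMIs of day 14 in 1 cell, and its direction turned when the rule was applied after thinning. Ppbp was 3.00-fold higher and came from 11 cells, but its log2 ratio was 0.45 without the shared barcodes and -0.27 when the rule was applied after thinning. Among genes lower at day 14, Ch25h, which makes 25-hydroxycholesterol, was at 82.7, 11.9 and 23.7 CPM and 3.49-fold lower. Egr1, an immediate early gene, was at 294, 852 and 91.5 CPM and 3.22-fold lower. Monocyte genes had 5 of 14 lower and 1 higher. Ly6c2, a surface antigen of fresh monocytes, was at 146, 393 and 71.1 CPM and 2.05-fold lower at day 14, and Plac8, a gene of classical monocytes, at 607, 908 and 328 CPM and 1.85-fold lower, though its log2 ratio was 1.05 in members without Arg1. Both were highest at day 7. In members without Arg1 Ly6c2 also went the other way, from 28.2 CPM at day 3 to 112 CPM at day 14, and 5 of 11 monocyte genes were higher and 2 lower, with a median log2 ratio of 0.58. Without the shared barcodes 9 of 14 were lower.

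Cell cycle genes had 1 of 20 higher and 3 lower at day 14, with a median log2 ratio of -0.28, and the sign turned without the shared barcodes, when 11 of 20 were higher and the median was 0.80. After thinning to 5000 UMIs, cells with 3 or more UMIs of Mki67, Top2a, Cdk1, Birc5, Ccna2 and Ube2c together numbered 7 of 48 at day 3 (14.6%, 6.07 to 27.8), 0 of 21 at day 7 and 13 of 98 at day 14 (13.3%, 7.26 to 21.6). Before thinning the numbers were 15, 0 and 24. Without the shared barcodes the thinned numbers were 0 of 37, 0 of 18 and 12 of 92. Each set was thinned in its own random draw, so these numbers do not tell which of the 7 cells of day 3 carried shared barcodes. Before thinning, 5 of the 37 cells of day 3 without shared barcodes were counted. The Arg1 macrophages had 1 of 60, 0 of 93 and 0 of 131 such cells. A count of 0, read as up to 3 cells, allows 14.3% of 21 cells, 8.11% of 37 and 2.29% of 131, and the exact upper bounds are 16.1, 9.49 and 2.78%. At day 14 the intervals of the sets stood apart with or without the shared barcodes, while at day 3 they overlapped (0.0422 to 8.94% in Arg1 macrophages). These intervals cover counting error within 1 library per day, and a difference between the sets was not tested. Of the cells without Arg1, 4 of 12 at day 3 and 9 of 31 at day 14 were counted in a draw of their own. Of those with 5 or more Arg1 UMIs, 3 of 29 and 6 of 54 were counted in another. The intervals of these sets overlapped on both days. Because the draws differed, these cells are not parts of the 7 and 13 counted among all members.

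Against Arg1 macrophages the cells were described at each day separately, without Arg1 and the genes that chose the Pf4 and C1q high cells. Csf1r and Adgre1, of which Arg1 macrophages needed 1 UMI, were kept, and no result is drawn from them. At day 3, 22.4% of 7142 genes were higher and 9.94% lower, and at day 14, 27.2% of 8468 were higher and 9.07% lower. The median log2 ratio of all genes was 0.26 at day 3 and 0.31 at day 14, and list medians below should be read against it. With TMM scaling, which sets these medians to about 0, the split moved from 69.3% to 43.7% of called genes being higher at day 3 and from 75% to 46.9% at day 14. A total of 1010 genes were higher on both days, 63.5% of those higher at day 3 and 52.0% of those higher at day 14. The lower genes shared 417, which were 59.9% and 61.1%.

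Genes of resident and perivascular macrophages were higher in 13 of 16 at day 3 and 14 of 17 at day 14, with median log2 ratios of 2.5 and 3.07. Igf1, insulin-like growth factor (chr10:87858265-87937042), was at 137, 50.6 and 117 CPM, where Arg1 macrophages had 2.42, 3.34 and 3.31 CPM. It was 35.4-fold higher at day 14 (16 to 97.3). Ms4a7, a membrane protein of mature macrophages, was at 314, 170 and 337 CPM against 12.1, 20.8 and 11 CPM, 25.9-fold higher at day 3 (13.9 to 54.5) and 30.5-fold at day 14 (19.6 to 50.3). Both genes were higher in the Pf4 and C1q high cells on every day. Timp2, an inhibitor of matrix proteases, was at 372, 152 and 320 CPM against 14.5, 8.34 and 11 CPM, and 25.6-fold and 29.0-fold higher. For Ccl8 the Arg1 macrophages had 1.21, 51.7 and 24.3 CPM, and it was 56.7-fold higher at day 14 (42.1 to 78.1). Igfbp4, which binds insulin-like growth factors, had no UMI in Arg1 macrophages at day 3. With that count set to a floor of 3 over the group it was 46.7-fold higher there, and it was 25-fold higher at day 14. Mrc1 was at 814, 634 and 713 CPM against 70.3, 141 and 99.3 CPM, and Folr2 and Cbr2, a carbonyl reductase of tissue macrophages, were higher on both days.

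Genes for eating dying cells were higher too, in 8 of 13 at day 3 and 8 of 15 at day 14. Mertk, a TAM receptor, was at 25.8, 23.8 and 36.2 CPM against 10.9, 6.67 and 5.52 CPM, though at day 3 its interval included 1 without the shared barcodes, and Abca1, a cholesterol exporter, at 106, 83.4 and 122 CPM against 49.7, 20.01 and 33.1 CPM. Lipid genes were mixed, with 8 higher and 5 lower of 19 at day 3 and 9 and 4 of 20 at day 14. Apoe was 5.40-fold (4.90 to 5.96) and 9.39-fold (8.78 to 10.1) higher than in Arg1 macrophages, and Trem2, a lipid-sensing receptor, was at 388, 167 and 402 CPM against 73.9, 48.4 and 71.2 CPM. Lgals3 (galectin-3), Cd9 (a tetraspanin) and Plin2 (a lipid droplet coat) were lower on both days. Without the shared barcodes their log2 ratios at day 3 were -0.55, -0.24 and -0.52, inside the limit of 1.5-fold, and against Arg1 macrophages with 10 or more C1qa UMIs none of the 3 was called on either day. Slc40a1, the iron exporter ferroportin, was at 38.2, 0 and 31.6 CPM against 0, 0 and 0.552 CPM, but without the shared barcodes it was at 4.53 CPM at day 3 and was no longer called there. Fcgrt, the neonatal Fc receptor, was at 97.8, 119 and 128 CPM against 23.0, 5.84 and 4.41 CPM, and was the only one of 6 Fc receptor genes that was higher on both days. Complement outside the gate was mixed, with C3 lower at both days, at 24.0, 38.7 and 25.6 CPM against 131, 99.2 and 58.5 CPM.

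**Figure D3:**
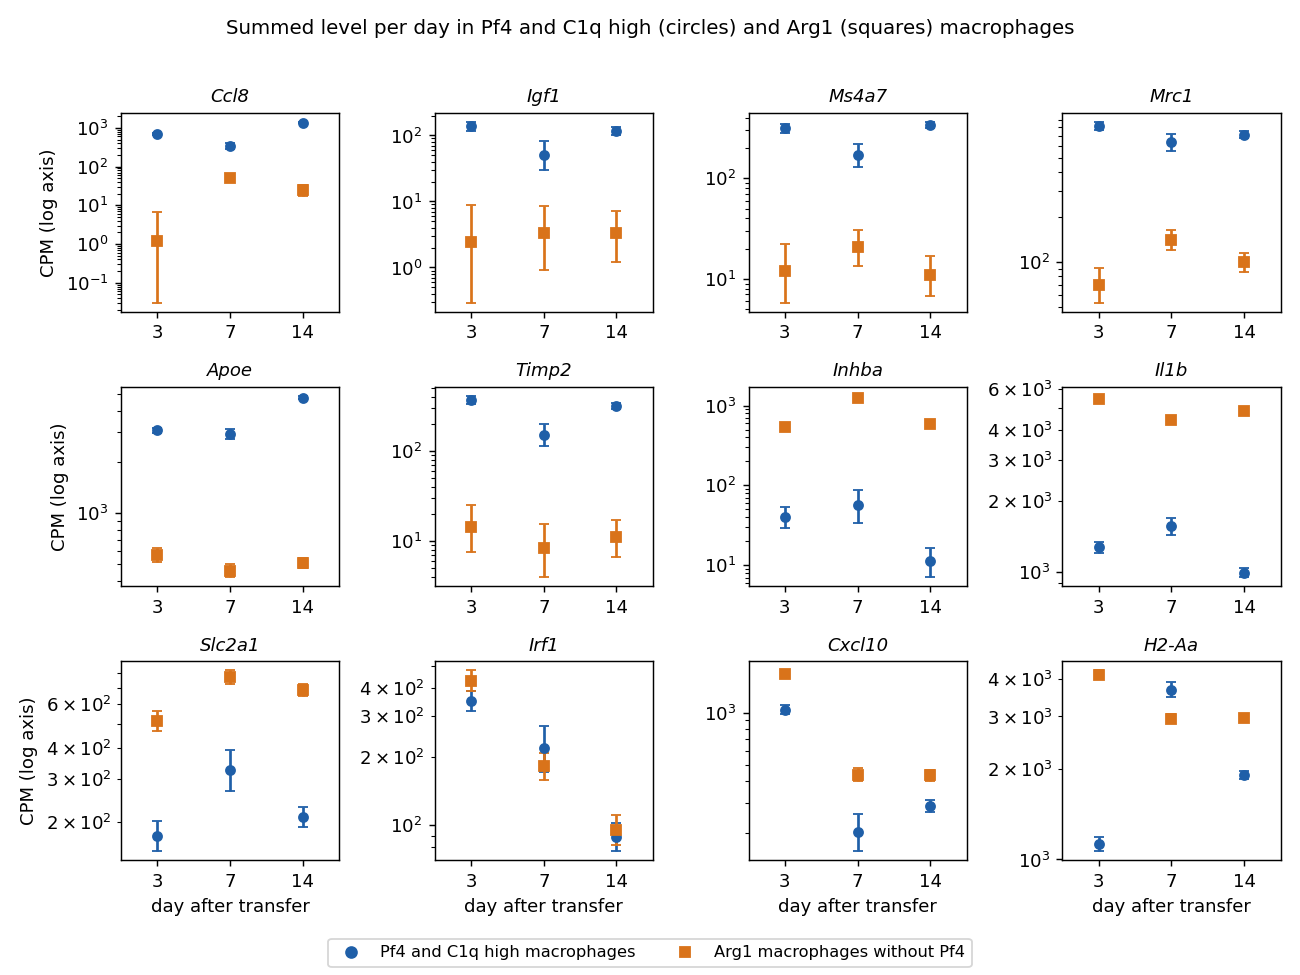
Level in CPM (log axes, each panel with its own range) by day after transfer of 12 genes in Pf4 and C1q high macrophages (blue circles) and in Arg1 macrophages without Pf4 (orange squares), with exact Poisson 95% intervals and 1 library per day. Ccl8, Igf1, Ms4a7, Mrc1, Apoe and Timp2 are higher, and Inhba, Il1b and Slc2a1 lower, in the Pf4 and C1q high cells on every day, while Irf1 is at similar levels in both sets, 351 and 429 CPM at day 3 and 89.2 and 95.4 CPM at day 14.

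Several groups were lower than in Arg1 macrophages. Hypoxia and glycolysis genes were lower in 16 of 16 at day 3 and 14 of 16 at day 14, with medians of -0.91 and -0.88. Slc2a1, the glucose transporter, was at 176, 325 and 210 CPM against 514, 771 and 683 CPM, and Egln3, a hypoxia-induced hydroxylase, at 28.5, 50.6 and 40.9 CPM against 189, 283 and 278 CPM. Monocyte genes were lower in 11 of 14 and 14 of 14, and inflammatory cytokine genes in 10 of 11 and 8 of 11, but in 6 of 11 at day 3 without the shared barcodes. Il1b, interleukin-1 beta, was at 1272, 1563 and 995 CPM against 5429, 4427 and 4846 CPM, 4.27-fold and 4.87-fold lower. The activin A subunit gene Inhba stood at 40.0, 56.6 and 11.2 CPM, where Arg1 macrophages had 544, 1245 and 584 CPM, which was 13.6-fold (9.99 to 18.9) and 52.3-fold (35.0 to 82.1) lower. F10, coagulation factor X, and Ptgs2, the inducible cyclooxygenase, were lower on both days as well. The day sums of Il1b, Inhba and Slc2a1 were lower in the Pf4 and C1q high cells on every day.

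MHC class II genes were lower in 9 of 11 at day 3 and 8 of 11 at day 14, with medians of -1.78 and -0.76, and interferon-gamma response genes in 16 of 18 and 6 of 18, with medians of -0.96 and -0.30. Both gaps were narrower at day 14, and that change was not tested. Iigp1, an interferon-inducible GTPase, was the one gene of the list that was higher in the Pf4 and C1q high cells on both days, at 246, 164 and 75.7 CPM against 131, 70.0 and 32.0 CPM. Without the shared barcodes it was no longer called at day 3 (log2 ratio -0.31), and against Arg1 macrophages with 10 or more C1qa UMIs not at day 14 (-0.45). Cell cycle genes were higher in 15 of 20 at day 3 and 18 of 20 at day 14, with medians of 1.34 and 4.03, and at day 3 without shared barcodes in 4 of 15 with 2 lower, beside 12.5% and 8.42% of all genes. Without the shared barcodes the resident list was still higher in 11 of 15 at day 3 and 13 of 16 at day 14, and the hypoxia list lower in 12 of 16 and 14 of 16, where 25.6% of all genes were higher and 8.7% lower at day 14. Set against only the 12 and 28 Arg1 macrophages with 10 or more C1qa UMIs, 8.41% of all genes were higher and 6.84% lower at day 3, and 13.1% and 5.84% at day 14. Resident genes were higher in 12 of 16 and 14 of 17 there, and hypoxia genes lower in 8 of 16 and 12 of 16. These Arg1 macrophages shared the lower limit of C1qa and not its level. C1qc was still higher in the Pf4 and C1q high cells, with log2 ratios of 0.85 and 1.04. C1qb was not called on either day there, with log2 ratios of 0.43 and 0.52. Cell cycle genes were higher in 7 of 20 and lower in 3 at day 3, and higher in 17 of 20 at day 14.

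**Figure D4:**
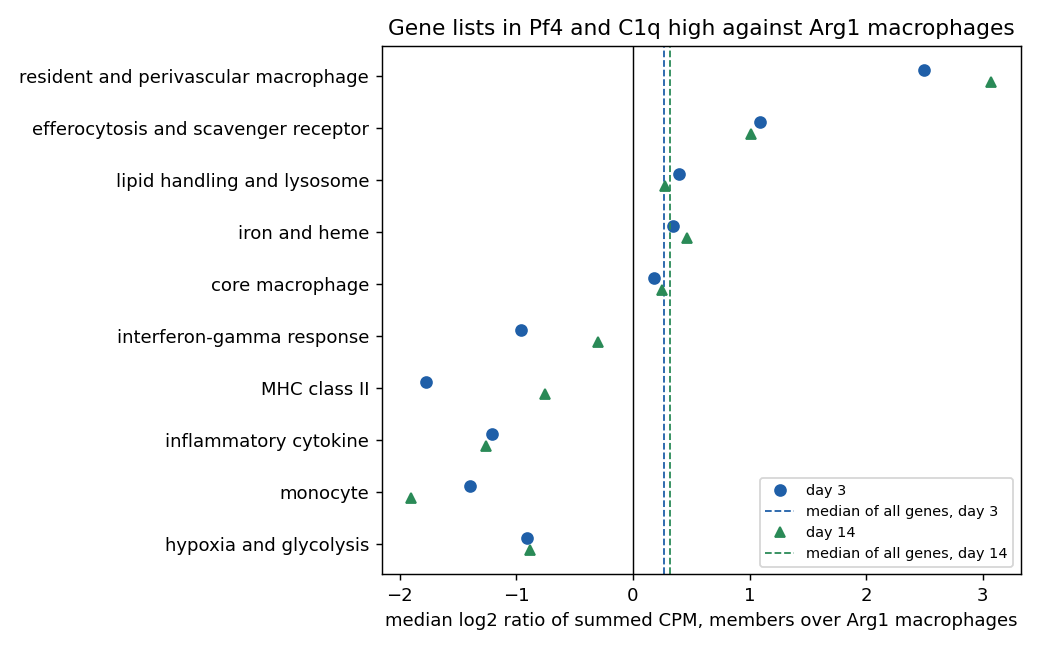
Median log2 ratio of summed CPM in Pf4 and C1q high over Arg1 macrophages (horizontal axis) for 10 gene lists at day 3 (blue circles) and day 14 (green triangles), with the median of all genes as dashed lines at 0.26 and 0.31. The resident list lies at 2.5 and 3.07, and the monocyte, inflammatory, hypoxia and MHC class II lists lie below 0 on both days.

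The same lists separated the cells within the Pf4 and C1q high set by Arg1, which had no part in their choice. Members with 5 or more Arg1 UMIs were compared with members without any, and 8.78% of genes were higher and 7.13% lower at day 3, 7.01% and 9.49% at day 7, and 4.99% and 10.2% at day 14. Hypoxia and glycolysis genes were higher with Arg1 in 11 of 16 at day 3, 13 of 15 at day 7 and 16 of 16 at day 14, with a median log2 ratio of 1.12 at day 14. Ldha, lactate dehydrogenase, was at 1235 CPM with Arg1 and 659 CPM without it at day 14, and Slc2a1 at 294 and 91.6 CPM. Monocyte genes were higher with Arg1 in 9 of 12 at day 3 and 10 of 13 at day 14, but at day 7 in 1 of 10, with 2 lower. Fn1, fibronectin, was at 1577 and 93.8 CPM at day 3 and at 815 and 57.8 CPM at day 14, and Spp1, osteopontin, at 3118 and 863 CPM and at 3107 and 537 CPM. All 4 genes were higher with Arg1 on both days, Ldha by only 1.46-fold at day 3.

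The cells without Arg1 held more of the resident genes at day 14. There 9 of 16 resident genes were lower with Arg1 and 3 higher, while at day 3 the list was mixed, with 6 higher and 4 lower, and at day 7 5 of 13 were lower and 1 higher. Apoe was at 2156 and 9488 CPM at day 14, a 4.40-fold difference (4.2 to 4.61), and at 2427 and 3907 CPM at day 3. Igf1 was at 55.0 and 233 CPM at day 14. Ccl8 went opposite ways, at 1094 with Arg1 and 375 CPM without it at day 3, and at 1074 and 2082 CPM at day 14. Interferon-gamma response genes were higher with Arg1 in 14 of 18 at day 3 and 4 of 18 at day 14, while at day 7 0 of 13 were higher and 8 lower. Against Arg1 macrophages the members without Arg1 had all 16 hypoxia genes lower on both days, and resident genes higher in 9 of 15 and 11 of 14, where 22% and 26.5% of all genes were higher and 14.1% and 10.8% lower. Those differences were present without the cells that carried Arg1. This contrast sets cells without Arg1 against cells chosen for it, so it cannot tell these differences apart from Arg1.

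**Figure D5:**
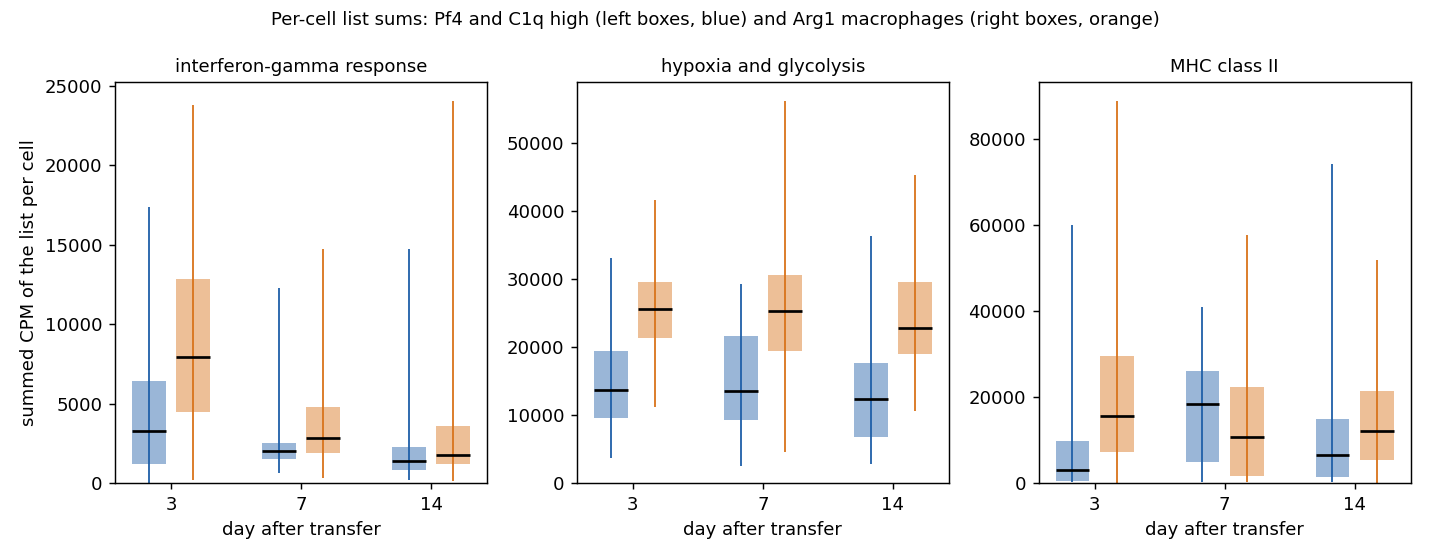
Summed CPM per cell of 3 gene lists (vertical axes) by day after transfer in Pf4 and C1q high macrophages (blue, left) and Arg1 macrophages (orange, right), where black lines are medians, boxes the interquartile range and thin lines the full range. The median interferon-gamma sum of the Pf4 and C1q high cells was 3287, 2010 and 1377 CPM, and their median hypoxia sum of 13712, 13545 and 12349 CPM lay below that of Arg1 macrophages on each day.

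Cell by cell the sets overlapped. The interferon-gamma sum of single Pf4 and C1q high cells ran from 0 to 17366 CPM at day 3, with a median of 3287 CPM, and from 217 to 14745 CPM at day 14, with a median of 1377 CPM. Arg1 macrophages had medians of 7946, 2849 and 1795 CPM. The hypoxia sum had medians of 13712, 13545 and 12349 CPM against 25586, 25260 and 22738 CPM, and the upper quartile of the Pf4 and C1q high cells, 19436 CPM at day 3 and 17674 CPM at day 14, lay below the lower quartile of the Arg1 macrophages, 21350 and 19055 CPM. The MHC class II sum was the most variable, from 245 to 59879 CPM at day 3, and its median was 3109, 18502 and 6511 CPM. For the hypoxia sum at day 7 the middle ranges overlapped. There the upper quartile of the Pf4 and C1q high cells was 21644 CPM and the lower quartile of Arg1 macrophages 19452 CPM. The middle ranges of the sets thus stood apart for hypoxia genes at days 3 and 14, and those of the interferon-gamma list overlapped on all 3 days.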

How the data were processed

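Gene counts per barcode were deposited by the authors as 3 filtered 10x matrices of whole-number UMI counts, for which the submitters' processing notes name mm10 and Cell Ranger 4.0.0, from 3' v3.1 libraries. Whether doublets were removed before deposit is not given in the sources used here, and the labels name both a cell sorter and magnetic beads for the CD45 selection. The members and the gene lists were chosen with earlier results of these data known. The 3 files held 10243 barcodes, of which 8139 passed the filters, with medians of 9626, 9263 and 10068 UMIs. UMIs were summed per day and set and scaled to CPM, with exact Poisson, Clopper-Pearson and conditional binomial intervals (scipy 1.17.1, Python 3.11.15). UMI counts collapse PCR copies, and intervals cover counting error only. The named genes are up to 10 on each side with at least 100 UMIs between days, 8 on each side against Arg1 macrophages and 5 from each of 18 lists, and some others, given for background, were chosen after their values were seen. Simulated Poisson sums, drawn with known fold changes, gave intervals that covered the truth for 96.3% of 8417 genes between days. The simulation held no variation between cells, so it checks the calculation only. Alternatives were TMM scaling (edgeR 4.0.16 in R 4.3.3), other minimum counts, other gates, thinning, doublet scores (scanpy 1.11.5), and leaving out shared barcodes. Cells are not replicates, so no p-value was computed. Gene symbols come from the deposited feature table. Promoters come from RefSeq, and the table held none for C1qa.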

Additional observations from a re-analysis of the deposited data

Results flagged for a closer look

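Some genes lay on opposite sides of the size rule at days 3 and 14 when Pf4 and C1q high macrophages were set against Arg1 macrophages. Of 7109 genes tested on both days, 9 were higher at day 3 and lower at day 14, and 7 the reverse. Only those that belong to the 18 lists are given here. In each, the difference between the days was not tested. Set against Arg1 macrophages with 10 or more C1qa UMIs, only Top2a and Ccl24 of these genes still lay on opposite sides. Top2a, a DNA topoisomerase of dividing cells, had a log2 ratio of -0.81 at day 3 (24.9 against 43.6 CPM) and 3.69 at day 14 (49.7 against 3.86 CPM). Axl, a TAM receptor, had -0.73 at day 3 (32.9 against 54.5 CPM) and 0.67 at day 14 (63.2 against 39.7 CPM), and -0.65 without shared barcodes at day 3, when its interval included 1. Ifit3, an interferon-induced gene, had 1.24 at day 3 (63.1 against 26.6 CPM) and -1.62 at day 14 (20.4 against 62.9 CPM), and 42 of its 71 UMIs at day 3 came from 1 cell. Without shared barcodes its day 3 value was -0.14. Ifit1 had 0.89 at day 3 (42.7 against 23.0 CPM) and -1.96 at day 14 (17.2 against 66.8 CPM). Cxcl3, a neutrophil chemokine, had 1.99 at day 3 (408 against 103 CPM) and -1.19 at day 14 (397 against 903 CPM). Its summed level in the Pf4 and C1q high cells was thus alike on both days and that in Arg1 macrophages was not. Against Arg1 macrophages with 10 or more C1qa UMIs Cxcl3 was higher on both days (3.54 and 2.21). In members without Arg1 it was lower than in Arg1 macrophages on both days (-5.04 and -3.30). Ccl24, an eosinophil chemokine, had 1.12 at day 3 (169 against 77.5 CPM) and -0.76 at day 14 (102 against 173 CPM). Without shared barcodes its day 14 value was -0.576, inside the limit of 1.5-fold, so it was no longer called there. In members without Arg1 its value was -0.72 at day 3, with an interval that included 1, and -1.32 at day 14. Fabp4 had 1.53 at day 3 (94.3 against 32.7 CPM) and -0.998 at day 14 (20.4 against 40.8 CPM), with 81 of 106 UMIs at day 3 in 1 cell, and 0.21 at day 3 without shared barcodes.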

How the results depend on the processing

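No paired analysis was possible because each day had 1 library and no result comes from a test. Each day's pool had no replicate, so none could be left out. The gate shares kept their direction under every alternative gate, with log2 ratios of day 14 over day 3 from 0.74 to 1.30. Of 2482 recomputed values, 2282 were classed as the same as the main value. For ratios and medians this class includes changes of sign where neither value met the size of the rule, such as the medians left out below. Numbers of genes in this class could still differ from the main number. Medians of the alternative activation list without each gene's top cell, between days and at day 3, gave no value. Cells with Arg1 of 0 alone, and Arg1 comparisons without shared barcodes, were added after the data were seen. The number of genes higher at day 14 than at day 3 (210) was 332 without shared barcodes, 338 with Arg1 of 0, 790 by mean CPM per cell and 91 with at least 100 UMIs. The number lower (421) was 280 with TMM scaling, 846 by mean CPM per cell, 211 with at least 100 UMIs and 277 when each gene lost its top cell. Against Arg1 macrophages, genes higher at day 3 (1600) numbered 890 with TMM, 597 with at least 100 UMIs, 541 against Arg1 macrophages with 10 or more C1qa UMIs and 779 without shared barcodes, and genes lower (710) numbered 1145, 427 and 440 under the first 3. At day 14, genes higher (2302) numbered 1242, 1046 and 1024 under TMM, 100 UMIs and the C1qa limit, and genes lower (768) 1407 under TMM and 457 with the C1qa limit.

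List medians, and genes named by the naming rule, that changed sign and met the size of 1.5-fold in at least 1 of the settings compared, as log2 ratios of day 14 over day 3, were as follows. Medians that changed sign inside that size are left out, such as those with Arg1 of 0 of the monocyte (0.58), inflammatory cytokine (0.54), chemokine (0.36) and resident lists (0.29). Without shared barcodes: the cell cycle median 0.80, Stmn1 0.61, Cenpa 1.23, Birc5 1.81, Chil3 -0.10 and Slc40a1 3.00 (1.87 without members holding a lymphocyte marker). With Arg1 of 0: the interferon-gamma median 0.29, Gbp2 1.08, Gbp4 1.91, Cxcl9 1.35, Fcgr1 0.59, Folr2 0.29, Plac8 1.05, Thbs1 2.53, Rsad2 -3.15, Hspa1a -0.21, Jun -0.19, Vegfa -0.0679 and Mgl2 -0.0605. After thinning: Ppbp -0.27, Slpi -1.73 (-0.10 without members holding a lymphocyte marker) and Mgl2 -0.0080, which was -0.0017 with the stricter gate. Without the top cell: Lyve1 1.87 and Tfrc -0.76. By mean CPM per cell: Hspa1b -0.0379. Against Arg1 macrophages at day 3, the cell cycle median was -0.0082 with the C1qa limit and the chemokine median -0.60 with Arg1 of 0. Apart from what the settings themselves change, such as fewer cells, the cause was not tested.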

Other observations

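Barcodes with 5 or more Pf4 UMIs were not all rich in C1qa. Those with 10 or more C1qa UMIs numbered 52, 22 and 107 at days 3, 7 and 14, those with 1 to 9 numbered 14, 14 and 48, and those without any C1qa UMI numbered 45, 28 and 121. The last had 5841, 3550 and 4915 CPM of Pf4, so its level was no lower than in the C1qa-rich cells, but their Arg1 was at 6051, 3854 and 6423 CPM and their Spp1 at 6082, 2226 and 6814 CPM. Thbs1, a matrix glycoprotein of monocytes, was at 3513, 3225 and 2848 CPM there, while Ccl8 was at 22.2, 86.0 and 147 CPM. Pf4 alone thus also marked cells with Arg1, Spp1 and Thbs1 at high levels. Ppbp was seen in 31.1, 17.9 and 25.6% of them.

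Within the Pf4 and C1q high cells, Gas6 and Vcam1 were seen together in 9 of 48, 1 of 21 and 33 of 98 cells, and Folr2 with Cbr2 in 22, 4 and 24. Lyve1 and Folr2 were seen together in 2, 1 and 5 cells.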
